A study of Mus musculus with 24 samples.

Results

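The immediate early genes Fos, Fosb, Jun, Junb, Jund, Egr1, Ier2, Ier3, Dusp1 and Klf6, were followed in cultured mouse macrophages that differed in oxygen supply and in the labelled genotype of Elavl1. The genes were found by their symbol, and all 10 members were present among the 52636 gene rows of each of the 2 expression tables. The list was chosen with earlier values of these libraries in view: Fos and Dusp1 were selected on their lower TPM in normoxic total RNA from labelled knockout mice, so levels in that contrast are given as a description without a test. The macrophages were grown from bone marrow of mice 8 to 12 weeks old, over 6 days with L-cell conditioned medium as the source of growth factor. The HuR/Elavl1 genotype was +/fl in the 3 controls (HET-97, HET-102, HET-129) and fl/fl in the 3 labelled knockouts (KO-176, KO-281, KO-301), and values are given in this order of mice. All 6 mice carried Csf1r-iCre, a recombinase driven by a promoter active in macrophages and other myeloid cells, and ribosomal protein L10a fused to EGFP, so the controls had 1 Elavl1 copy open to deletion. Cells of each mouse were kept for 18 h at 20% oxygen (normoxia) or 1% oxygen (hypoxia), and each lysate was split into total poly(A) RNA and RNA recovered with the tagged ribosomes by translating ribosome affinity purification (TRAP). This gave 24 libraries in 8 groups of 3, and each mouse gave 1 library to each of 4 groups.

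Immediate early genes are switched on within minutes of a stimulus, without new protein synthesis, by transcription factors that are already present in the cell. Their transcripts are short-lived, and many carry AU-rich elements in the 3′ untranslated region that recruit decay factors such as tristetraprolin or the binding protein HuR, which Elavl1 encodes and which is known for stabilising such messages. In macrophages they respond to growth factors, adhesion and microbial products, and their products build the AP-1 complex, other transcription factors and feedback inhibitors of the signal. The libraries measure levels, and the stability of the transcripts was not measured.

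AU-rich pentamers were common in these transcripts, but the longer nonamer was present in Fos and Dusp1 alone among the 10. The search used the letters ATTTA, and TTATTTATT for the nonamer, on the mRNA strand of 1 annotated transcript per gene, with overlapping matches counted and each nonamer holding a pentamer. Ier3 had 5 pentamers in 613 bases, a density of 8.16 per kb, and Dusp1 had 4 with 2 nonamers, and Fos 4 with 1 nonamer. Klf6 had 7 pentamers in a longer region of 3111 bases, Jun had 4, Junb and Egr1 had 2 each, Fosb and Jund had 1 each, and Ier2 had none. At least 1 pentamer was present in 9 of the 10 members, and in 71.7% of 10327 tested genes with an annotated region of at least 100 bases. The nonamer was present in 8.23% of those genes. The windows below are shown because Fos and Dusp1 hold the nonamer, Ier3 has the densest pentamers, and Jun and Klf6 have pentamers but no nonamer. They were read from GENCODE M21 transcripts on GRCm38, 5′ to 3′ on the mRNA strand, with capitals marking each ATTTA.
Fos, chr12:85477102-85477131, plus strand: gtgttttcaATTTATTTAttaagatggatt
Dusp1, chr17:26506156-26506185, minus strand: gctggtccttATTTATTTAacacccccctc
Ier3, chr17:35822485-35822514, plus strand: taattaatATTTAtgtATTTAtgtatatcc
Jun, chr4:95049207-95049236, minus strand: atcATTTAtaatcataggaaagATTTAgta
Klf6, chr13:5868010-5868039, plus strand: tgtataagctgtATTTAcaaatcgcagtgg
In the Fos and Dusp1 windows the pentamers overlap, whereas those of Ier3 and Jun are separate. A match is a description of the letters and does not show that a protein binds there.

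Values were TPM, a share of the transcripts of a library scaled to gene length, so sequencing depth was unknown. The sum of 8 macrophage markers lay between 10830 and 26690 TPM in every library, while T cell, dendritic cell, erythroid and mast cell markers summed to at most 3.01 TPM. Elavl1 itself, measured over the whole gene, differed by 0.14 ± 0.16 on the log2 scale (SE, labelled knockout minus control) in normoxic total RNA and by -0.08 ± 0.39 in hypoxia. In TRAP RNA it differed by -0.94 ± 0.85 and -0.68 ± 0.75, with KO-301 at 0.840 TPM in normoxia and KO-176 at 1.75 TPM in hypoxia beside 10.5 to 23.5 TPM in the other 10 TRAP libraries. None of these 4 differences passed by limma, so genotype directions rest on the labels. Mice HET-129 and KO-301 stood apart, with ribosomal protein genes at 9.45 to 10.9% of TPM in their total RNA against 11.8 to 17.5% in the other 4 mice. Some of the results that rest on these mice are also given without them, but the correlations between members are not.

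Among the 10 genes, 9 were among the abundant transcripts of these macrophages. Averaged over the 12 total RNA libraries, Fos, the partner of Jun proteins in AP-1, had the highest level at 556.4 TPM, which was rank 242 of 12403 genes. Klf6, a zinc finger transcription factor, followed at 377.2 TPM. Next came Jund at 280.4, Ier2 at 253.0, Ier3 at 231.3, Junb at 190.3, Dusp1 at 184.0, Jun at 177.1 and Egr1 at 141.9 TPM. Their neighbours in this order did not separate, since the ranges over libraries overlapped for each neighbouring pair. Fosb, the close relative of Fos, was far lower at 6.13 TPM, at the 31.2 percentile of tested genes, whereas the other 9 were above the 92nd.

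**Figure D1:**
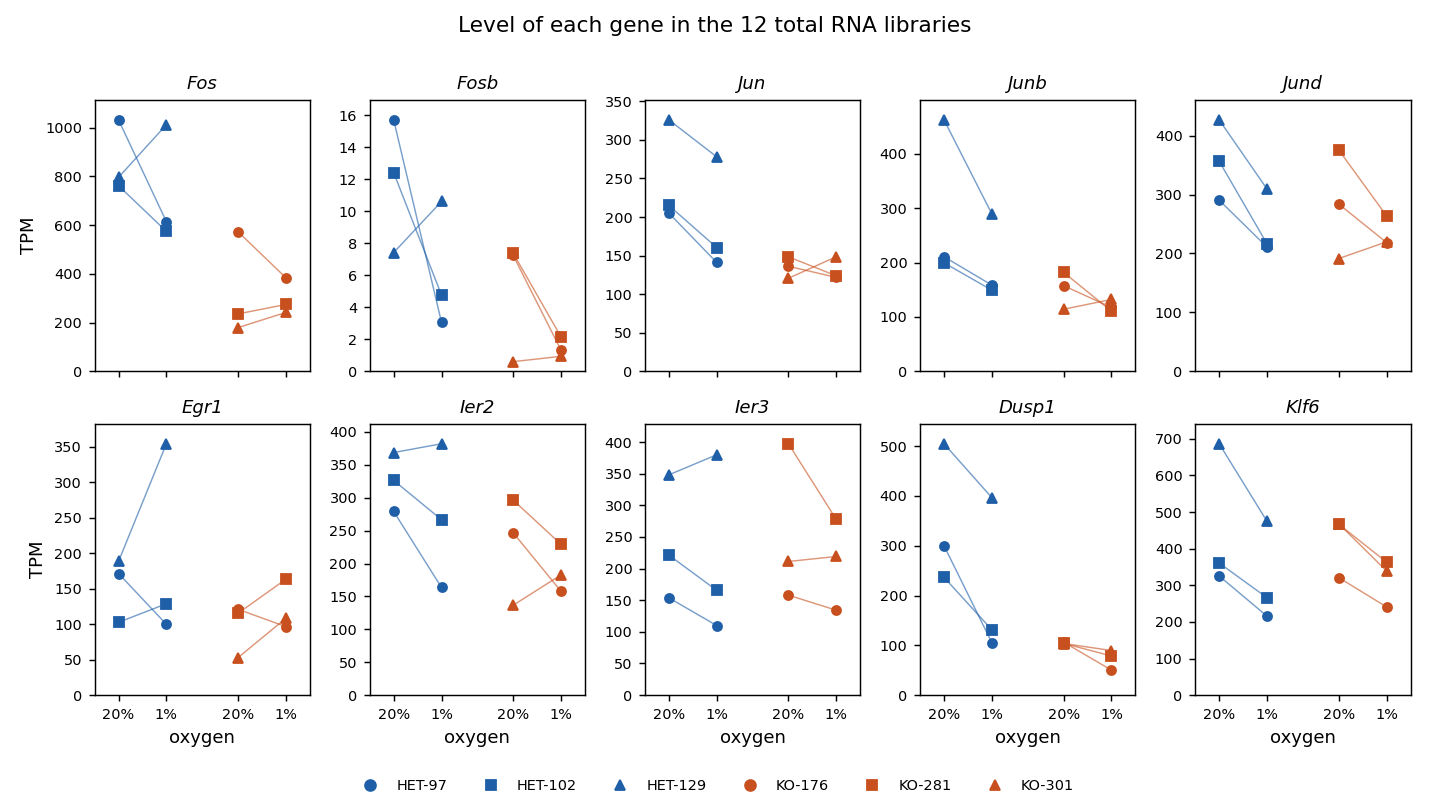
TPM (vertical axis, starting at 0, a scale of its own for each gene) of the 10 genes in the 12 total RNA libraries, with the normoxic (20% oxygen) and hypoxic (1% oxygen) library of each mouse joined by a line, controls in blue and labelled knockouts in orange. Klf6 and Dusp1 go down in all 6 mice. For Fos, Fosb, Junb and Dusp1 every orange point is below every blue point at the same oxygen level. Fos and Dusp1 were picked on the normoxic part of this pattern.

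Hypoxia lowered Klf6 in total RNA, and Klf6 was the single member to pass the test over 6 mice. Control cultures had 325, 361 and 686 TPM of Klf6 at 20% oxygen, and 216, 266 and 475 TPM at 1%. Cultures of the labelled knockouts went from 321, 467 and 468 to 241, 363 and 339 TPM. Every mouse had the lower value in hypoxia, although the groups overlap because the mice differ in level. The log2 change was -0.47 ± 0.05 (SE), or 0.724 times, with a limma adjusted p of 0.00826. In this comparison 2.40% of 12403 genes were called lower and 3.97% were called in either direction. Klf6 lost the call without mice HET-129 and KO-301, at -0.45 with a limma adjusted p of 0.0801, and without the mouse as a block, at a limma adjusted p of 0.813.

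Dusp1, a phosphatase that inactivates MAP kinases and so limits the signal that induces it, was also lower in hypoxia in 6 of 6 mice, a pattern shown by 9.28% of genes tested. Dusp1 in the control mice was 300.1, 236.6 and 504.9 TPM at 20% oxygen, and 105.4, 131.4 and 396.7 TPM at 1% oxygen. For the labelled knockouts these values were 106.4, 103.9 and 103.7 TPM, and 50.3, 78.7 and 89.6 TPM. HET-97 differed most between oxygen levels and KO-301 least. The log2 change of -0.73 ± 0.17 (SE, 95% interval -1.12 to -0.34) had a limma adjusted p of 0.0585 and did not pass. The normoxic libraries in this change are those that led to Dusp1 and Fos being picked.

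The transcripts of the Jun proteins, which form AP-1 with Fos proteins or with each other, were lower in hypoxic total RNA in every mouse except KO-301. Junb was 210.7, 199.6 and 462.6 TPM in normoxic controls, and 158.5, 149.1 and 289.5 TPM in hypoxic ones. Labelled knockout values of Junb were 157.5, 182 and 114.1 TPM at 20% oxygen, against 117.4, 110.5 and 132.1 TPM at 1%. KO-301, with the lowest normoxic value, was the one mouse that was higher in hypoxia. The Junb change of -0.40 ± 0.12 had a limma adjusted p of 0.0948, and that of Jund was -0.39 ± 0.11 with a limma adjusted p of 0.0902. Without KO-301 both passed, Junb at -0.53 with a limma adjusted p of 0.0306 and Jund at -0.51 with a limma adjusted p of 0.0292. Jun moved less, by -0.22 ± 0.10 with a limma adjusted p of 0.252.

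Fos did not move in one direction. Its level was 1032, 761.7 and 795.9 TPM in normoxic controls, against 614.3, 574.2 and 1012 TPM under hypoxia. Cultures of labelled knockouts had 572.3, 235.4 and 179.3 TPM of Fos at 20% oxygen, against 383.6, 274.3 and 241.5 TPM at 1%. Thus 3 mice were lower and HET-129, KO-281 and KO-301 were higher in hypoxia. The mean log2 change was -0.12 ± 0.17, with a 95% interval of -0.52 to 0.28 and a limma adjusted p of 0.714. Fosb was more variable, at 15.7, 12.4 and 7.42 TPM in normoxic controls, against 3.05, 4.76 and 10.6 TPM in hypoxic ones, and at 7.23, 7.37 and 0.599 TPM against 1.31, 2.14 and 0.932 TPM in labelled knockouts. Its change of -0.96 ± 0.36 on the log2(TPM + 1) scale, which understates changes of low genes, did not pass (limma adjusted p 0.170).

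The remaining members gave mixed directions. Egr1, a zinc finger factor induced through serum response elements, was the only member with a higher mean in hypoxia, by 0.28 ± 0.23 with a limma adjusted p of 0.521. In HET-129 its level of 188 TPM at 20% oxygen compared with 354 TPM at 1%, while HET-97 went the other way, from 171 to 99.8 TPM. Without HET-129 and KO-301 the Egr1 change was -0.07. Ier2, a nuclear regulator of early growth responses, changed by -0.27 ± 0.15 with a limma adjusted p of 0.333, and Ier3, a regulator of stress and survival signalling, by -0.24 ± 0.10 with a limma adjusted p of 0.196. Both were lower in 4 of 6 mice. Of the 10 members 9 had a lower mean in hypoxia, and their median was -0.33 on the log2 scale against -0.01 over all genes tested.

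In TRAP RNA 9 of the 10 members had a lower mean in hypoxia, and Egr1, at 0.01, joined them after quantile normalization. No member passed the test there, where 0.0343% of 11676 genes were called. Klf6 in TRAP RNA was 128, 138 and 247 TPM in normoxic controls and 86.3, 92.1 and 142 TPM in hypoxic ones. It was 104, 289 and 198 TPM in normoxic labelled knockouts, and 85.5, 228 and 152.5 TPM in hypoxic ones. All 6 mice were lower in hypoxia, as were 4.87% of genes, with a mean change of -0.49 ± 0.09 and a limma adjusted p of 0.117. Fosb was lower in 6 of 6 mice as well, by -1.28 ± 0.30 with a limma adjusted p of 0.181, but all its hypoxic TRAP values were at or below 1.44 TPM and KO-281 was listed at 0. Fewer than 6 mice agreed for Dusp1, at -0.67 ± 0.25 and lower in 4 of 6, with a limma adjusted p of 0.279. Junb was at -0.48 ± 0.18, Jund at -0.33 ± 0.14 and Jun at -0.25 ± 0.10, each lower in 5 of 6 mice. The difference between the 2 hypoxia changes was tested within mice and passed for 0 of 10 members and 0% of 12918 genes by limma, with 708 genes at an unadjusted p under 0.05. The largest such differences relative to their error were 0.21 ± 0.08 for Ier3 and -0.26 ± 0.12 for Egr1, both with a limma adjusted p of 0.816.

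**Figure D2:**
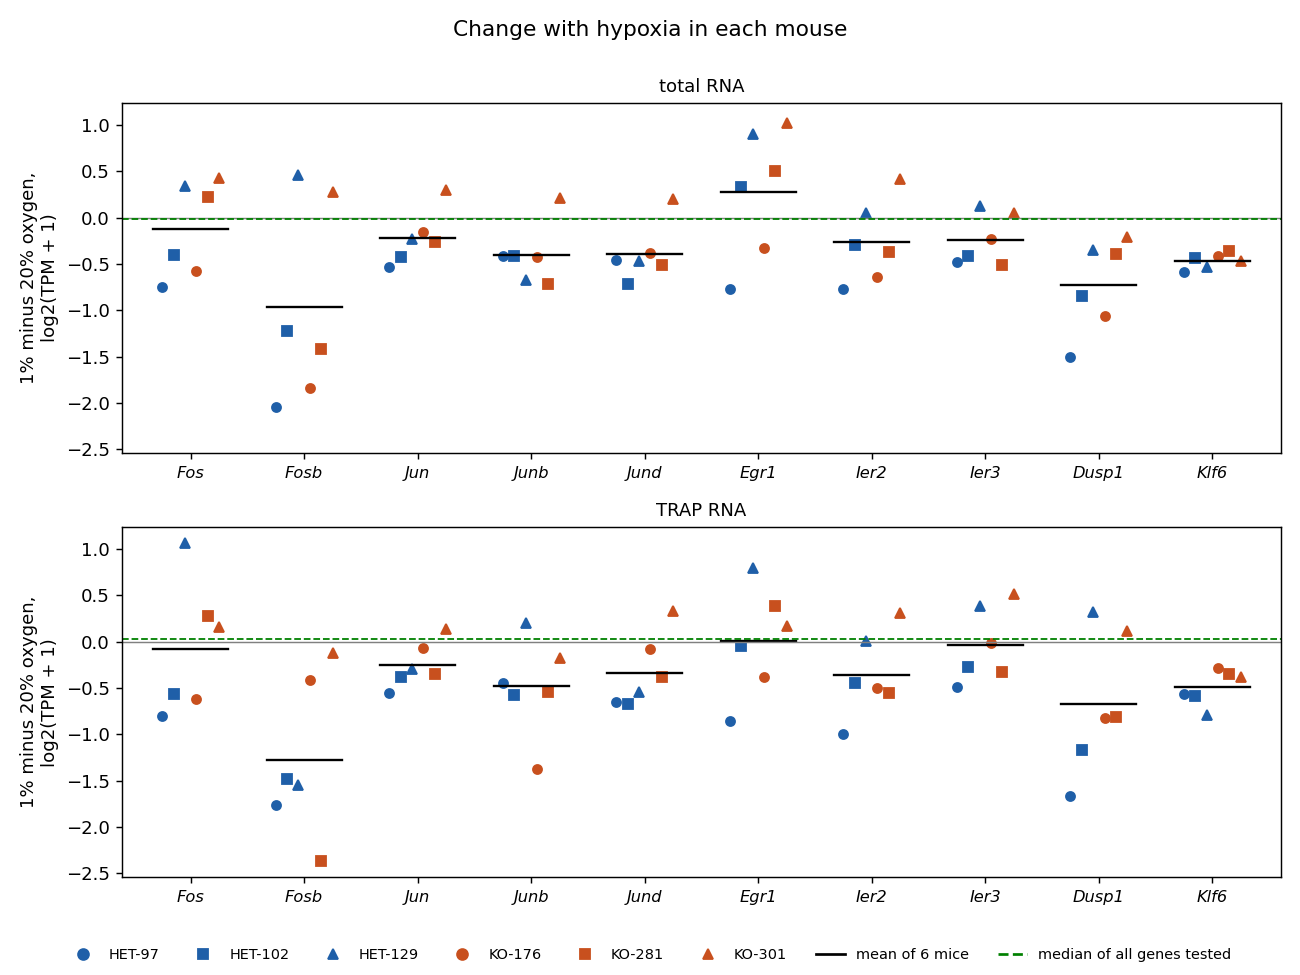
Hypoxic minus normoxic log2(TPM + 1) of each mouse (points, controls blue, labelled knockouts orange), in total RNA above and TRAP RNA below, with the mean of 6 mice as a black bar and the median of all genes tested as a dashed line. The Klf6 points lie close together near the mean of -0.47 in total RNA, while Fos and Egr1 points lie on both sides of 0 and KO-301 is the only mouse above 0 for Jun, Junb and Jund in total RNA.

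Related genes were examined from lists of the same pathways. Among 28 other immediate early genes, 24 were lower in hypoxic total RNA and 6 passed, all lower, with a median of -0.29. They were Plk3, a stress kinase (-1.09 ± 0.13, limma adjusted p 0.0102), Gadd45a (-0.60), Pim1 (-0.56), Myc (-0.54), Errfi1 (-0.52) and Rhob (-0.52). Of 10 EGR, NR4A and KLF factors 9 were lower and 2 passed, Klf2 at -0.84 ± 0.16 with a limma adjusted p of 0.0362 and Klf4 at -0.41 ± 0.06 with a limma adjusted p of 0.0222. None of 9 AP-1 and ATF relatives and none of 8 other dual-specificity phosphatases passed. Among 24 upstream kinases and serum response factors 17 were higher, and Map2k6, which activates p38, passed at 0.52 ± 0.09 with a limma adjusted p of 0.0323. Of 9 heat shock and handling stress genes 7 were lower, and Hspe1 (-0.47) and Hsp90aa1 (-0.37) passed, both lower. Their median of -0.34 was close to the -0.33 of the 10 members. Over all 12403 genes tested 6473 were lower, 3.97% were called in either direction and the median was -0.01. Without mice HET-129 and KO-301 only 8 genes of all were called in place of 492, so not all of these list genes can pass there. Without the mouse as a block 0 genes were called.

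The members differed widely in how much of their RNA was recovered with ribosomes. Egr1, Klf6, Fosb, Dusp1, Fos, Jun and Junb were lower in TRAP than in total RNA of the same lysates, while Ier2, Ier3 and Jund were at about equal TPM in both. The 7 lower members compare with 64.2% of 12918 genes called lower, and the median over all genes was -0.54. Differences are best read against that median. It was 0.01 after quantile normalization, which follows from the method, since all libraries are given the same distribution. TPM is a share within each fraction, and ribosomal protein genes took 14.7 to 29.1% of TPM in TRAP libraries against 9.45 to 17.5% in total RNA.

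Egr1 lay furthest below. Its total RNA was 171, 103 and 188 TPM in normoxic controls, and its TRAP RNA was 77.0, 42.8 and 43.8 TPM. The normoxic labelled knockouts had 121, 115 and 52.95 TPM in total RNA, against 36.6, 60.8 and 19.9 TPM in TRAP RNA. TRAP was below total RNA in 6 of 6 mice, as for 56.7% of genes, with a log2 difference of -1.54 ± 0.14 (SE) and a limma adjusted p of 2.23e-05, at the 5.85 percentile of all genes. Klf6 followed at -1.30 ± 0.12 (limma adjusted p 1.88e-05), Fosb at -1.26 ± 0.21 and Dusp1 at -1.03 ± 0.18. The differences of Dusp1 and Fos contain the normoxic total RNA values on which both were picked. Fos was at -0.83 ± 0.18 and Jun at -0.59 ± 0.15, the latter close to the median gene. Junb, at -0.36 ± 0.11 with a limma adjusted p of 0.0177, was above that median and did not pass after quantile normalization, at -0.18 with a limma adjusted p of 0.253.

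Ier2, Ier3 and Jund stood higher in the range of genes. The differences were 0.06 ± 0.07 for Ier2 (95% interval -0.11 to 0.23), 0.03 ± 0.15 for Ier3 (-0.30 to 0.36) and 0.00 ± 0.08 for Jund (-0.18 to 0.18). These values lay between the 81.3 and 83.9 percentile of all genes. The sign for Jund turned with scaling, to 0.10 after quantile normalization and 0.12 after rescaling without mitochondrial and ribosomal protein genes. Ier3 in TRAP RNA was 668 TPM in normoxic and 534 TPM in hypoxic KO-281, against 122 to 374 TPM in the other 10 TRAP libraries. In KO-281, TRAP RNA was also at or above total RNA for Fos, Jun and Dusp1 when both oxygen levels were averaged, which no other mouse showed. By list, 24 of 28 other immediate early genes were called lower in TRAP RNA with a median of -0.93, beside 64.2% of all genes. Upstream kinases and serum response factors had 22 of 24 called lower at a median of -1.04. Other dual-specificity phosphatases had 7 of 8 at -1.05, and heat shock and handling stress genes 6 of 9 at -0.37. A low TRAP level was thus not particular to immediate early genes.

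**Figure D3:**
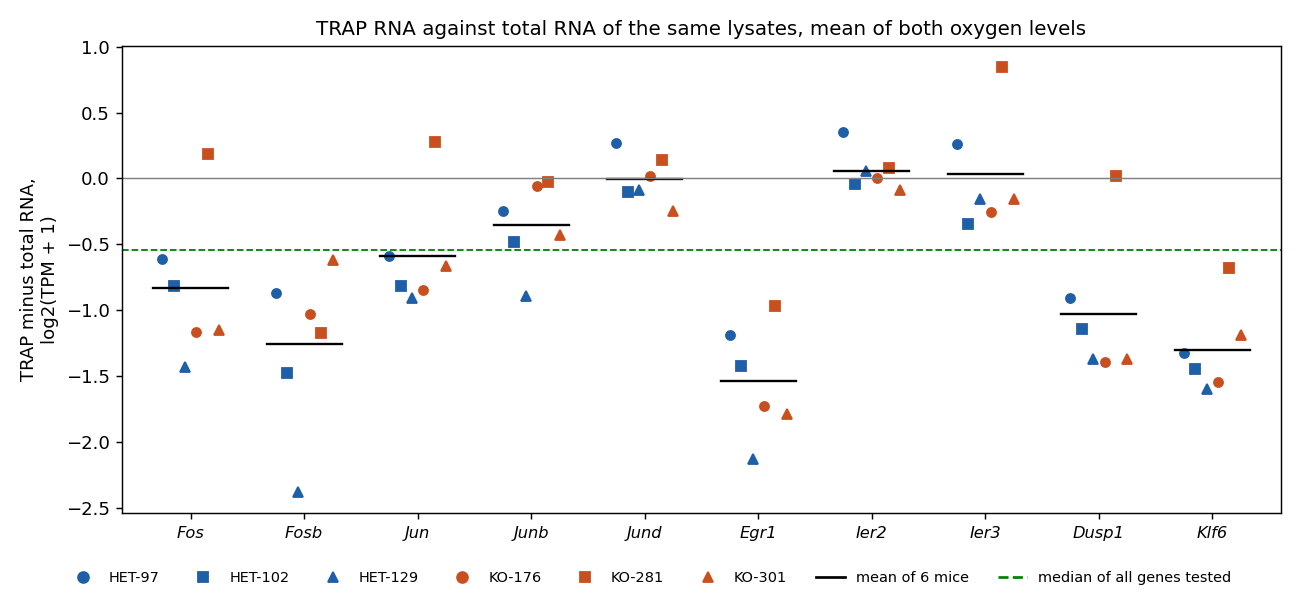
TRAP minus total RNA in log2(TPM + 1), averaged over both oxygen levels, for each mouse (points, controls blue, labelled knockouts orange), with the mean of 6 mice as a black bar and the all-gene median of -0.54 dashed. Egr1, Klf6 and Fosb lie below that line in all 6 mice, Jund, Ier2 and Ier3 lie above it in all 6, and KO-281 (orange square) is the highest point for Fos, Jun, Junb, Egr1, Ier3, Dusp1 and Klf6.

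In normoxic total RNA every labelled knockout was below every control for 5 members. Fos and Dusp1 are among them and were picked on these values, so they cannot be set against the share of all genes. Fos averaged 863 ± 147 TPM in controls and 329 ± 213 TPM in labelled knockouts (SD, n = 3), a ratio of 0.381. Dusp1 averaged 347 ± 140 and 104.7 ± 1.52 TPM, a ratio of 0.302. The other 3 were Junb at a ratio of 0.520, Jun at 0.543 and Fosb at 0.428, and the same separation was shown by 7.95% of genes tested. For Fosb it was nearly a tie, with HET-129 at 7.416 TPM and KO-281 at 7.368 TPM. The median gene was at -0.14 on the log2 scale in this contrast, and at 0.00 after quantile normalization, which brings it near 0 by its method. Egr1, Ier2, Jund and Klf6 overlapped with ratios of 0.626, 0.698, 0.792 and 0.915, and Ier3 overlapped at 1.06. Without KO-301, whose Fosb value was 0.599 TPM, the Fosb log2 difference went from -1.37 to -0.57. Without HET-129, the control highest in Jun, Junb and Dusp1, that of Junb went from -0.85 to -0.46.

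The hypoxic cultures came from the same mice, so they repeat the genotype contrast in other cultures and not in other animals. Every labelled knockout was below every control for Fos, Fosb, Junb and Dusp1, 4 of 10 members, and 6.38% of 11741 genes did the same. Because Fos and Dusp1 had been picked on normoxic values of these mice, their part in that count is no independent support. The hypoxic Fos values, given above, average 734 ± 242 TPM for controls against 299.8 ± 74.4 TPM for labelled knockouts (SD, n = 3), a ratio of 0.409. HET-102 was the lowest control at 574.2 TPM, and KO-176 the highest labelled knockout at 383.6 TPM. The log2 difference of -1.27 ± 0.29 (SE) did not pass, with a limma adjusted p of 0.977. Dusp1 was at a ratio of 0.345 and -1.31 ± 0.51 with the same adjusted p by limma, and without HET-129, which had 397 TPM, its difference was -0.72. Junb separated at a ratio of 0.603, with the lowest control at 149.1 TPM beside the highest labelled knockout at 132.1 TPM, and Fosb lay at or below 2.14 TPM in labelled knockouts and at or above 3.05 TPM in controls. Jun overlapped at a ratio of 0.680. Without HET-129 the log2 difference of Jun was -0.20 in place of -0.49, and that of Junb -0.36 in place of -0.66. No gene was called by limma in this contrast, with 371 genes at an unadjusted p under 0.05, and the smallest p of an exact permutation test of 3 against 3 mice would be 0.10.

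Other cell types were measured beside these contrasts. Fibroblast markers, 5 genes, summed to 2.57 to 30.8 TPM in normoxic controls and 3.95 to 60.2 TPM in normoxic labelled knockouts, and to 1.63 to 24.7 and 4.87 to 49.7 TPM in hypoxia. In TRAP RNA they summed to at most 3.29 TPM. The 7 neutrophil and precursor markers summed to 5.84 to 23.7 TPM in normoxic controls and 6.75 to 63.1 TPM in normoxic labelled knockouts. In hypoxia they summed to 8.80 to 34.6 TPM and 6.22 to 99.3 TPM, with the highest value in KO-301, and Ly6g was at 0 in all total RNA libraries. B cell markers reached 10.2 TPM. The macrophage marker sum was 22770 to 26690 TPM in normoxic controls and 14250 to 20320 TPM in normoxic labelled knockouts, and 24570 to 26200 against 16160 to 21210 TPM in hypoxia, so the ranges do not overlap at either oxygen level. Most of each sum was Lyz2, with a mean of 20690 TPM in normoxic controls and 14110 TPM in normoxic labelled knockouts. Also lower in normoxic labelled knockouts were Cd68 (1966 against 1422 TPM), Cd14 (590.4 against 345.8 TPM) and Adgre1 (413.8 against 310.3 TPM). The same held for Csf1r (348.3 against 268.8 TPM) and, by little, Mertk (49.95 against 46.79 TPM). Only Fcgr1, at 256.9 against 335.6 TPM, and Itgam, at 259.6 against 310.8 TPM, differed the other way. The part of these differences in the levels of the 10 genes was not tested. In bulk RNA, fewer cells of a type and less RNA per cell cannot be told apart.

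In TRAP RNA the genotype groups overlapped for most members. Fos was 686.3, 456.4 and 229.7 TPM in normoxic controls, against 257.9, 262.2 and 87.8 TPM in the labelled knockouts, so that HET-129 lay within the range of the labelled knockouts. The log2 difference of -1.20 ± 0.53 had a limma adjusted p of 0.9998, and the hypoxic one of -1.15 ± 0.42 had 0.977 by limma. Dusp1 was 169, 119.6 and 154 TPM in normoxic controls, against 36.6, 121.6 and 35.2 TPM in the labelled knockouts, and KO-281 was the labelled knockout that reached the control range. Its differences were -1.42 ± 0.47 in normoxia and -1.09 ± 0.62 in hypoxia. Ier2 was the single member with no overlap in normoxic TRAP RNA, at a ratio of 0.631, where 4.14% of genes did the same. This was nearly a tie, with HET-102 at 334.5 TPM and KO-281 at 332.5 TPM. None of the 9 members tested in hypoxic TRAP RNA separated, where 7.40% of genes did. Normoxic TRAP RNA came from the lysates that led to the choice of Fos and Dusp1 and is no independent repeat. Limma called 0 genes in either TRAP contrast, though unadjusted p were under 0.05 for 234 genes in normoxia and 486 in hypoxia.

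**Figure D4:**
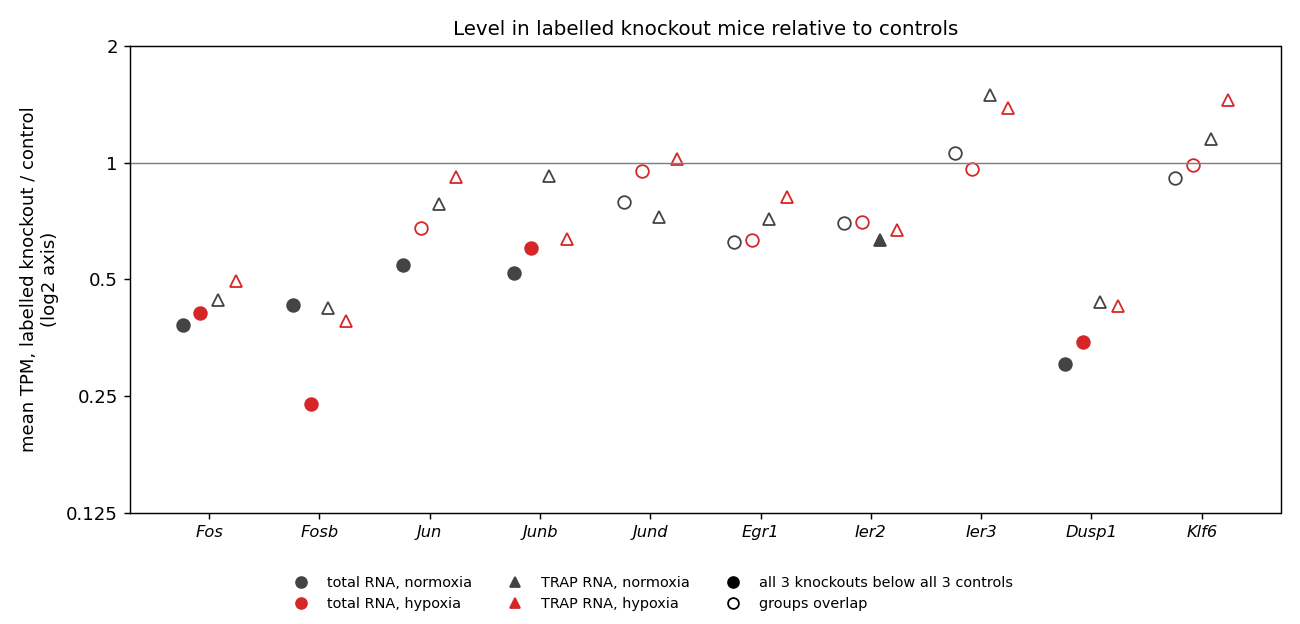
Mean TPM of the 3 labelled knockouts divided by that of the 3 controls (vertical axis, log2 scale) for each gene in total RNA (circles) and TRAP RNA (triangles), in normoxia (dark) and hypoxia (red), with filled symbols where all 3 labelled knockouts were below all 3 controls. Fos, Fosb and Dusp1 lie at ratios of 0.494 or lower in all 4 settings, and Ier3 and Klf6 lie near or above 1.

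For the members other than Fos and Dusp1, the hypoxia change was not shown to differ between genotypes. Limma called 0 genes for that difference in total RNA and 0 in TRAP RNA, where unadjusted p were under 0.05 for 574 and for 432 genes. Jun, whose change was larger in controls, had a difference of 0.35 ± 0.17 (95% interval -0.05 to 0.76, limma adjusted p 0.965) in total RNA. In TRAP RNA Jund had 0.58 ± 0.20 (0.11 to 1.05, limma adjusted p 0.9988). For Fos and Dusp1 this difference contains the normoxic values they were picked on, so it is not read for them.

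The genes moved together across libraries to different degrees. Over the 12 total RNA libraries, which share 6 mice, the 45 pairs of members had a median Pearson r of 0.659 on the log2 scale. Jun and Dusp1 had the highest r at 0.957, and Fos and Ier3 the lowest at -0.11. Among genes outside the 10 with a mean of at least 4 TPM, those most like the mean profile of the members were Btg2 (r 0.939), Pim1 (0.937), Pmaip1 (0.898), Pot1b (0.898) and Snx18 (0.884). Btg2, an antiproliferative factor, and the kinase Pim1 were on the list of other immediate early genes. HET-129 and KO-301, the mice that stand apart, hold the highest and the lowest normoxic mean of the members. Over all 11741 genes tested in hypoxic total RNA, 7639 were lower in labelled knockouts, with a median of -0.11. Of 27 other immediate early genes tested there, 21 were lower with a median of -0.50, and limma called none. Zfp36, which encodes tristetraprolin, was among them at -0.87 ± 0.26 with a limma adjusted p of 0.977.

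Genes with the AU-rich letters were also set against those without, a split chosen after the values of the members were seen. In hypoxic total RNA the median genotype difference was -0.18 for 825 genes with the nonamer, -0.13 for 6410 with a pentamer only and -0.08 for 2843 with neither. In hypoxic TRAP RNA the medians were -0.10, -0.12 and -0.10. Between fractions the medians were -0.90 with the nonamer, -0.76 with a pentamer only and -0.35 with neither, and the members went both ways, with Ier3 at 0.03 despite 5 pentamers and Egr1 at -1.54 with 2. These classes differ in the length of the untranslated region and in base composition, which were not matched.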

How the data were processed

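The deposited tables held TPM for total and TRAP RNA, scaled by the authors to gene length and library total (column sums 999629 to 999969), so no counts, depth or counting intervals were available. The submitters' processing notes name HISAT, DESeq2 and GRCm38. Versions, settings and strand use are not given in these sources. Identifiers were matched to GENCODE M21, leaving 233 unmatched. The members and lists were chosen with earlier results of these data known. Genes with at least 1 TPM in 3 fitted libraries were tested on log2(TPM + 1) by limma-trend (limma 3.58.1, R 4.3.3), two-sided, with Benjamini-Hochberg adjustment over all genes and a threshold of 0.05. The mouse was a block in all comparisons except between genotypes, which used the 6 libraries compared. Mouse numbers mark the same animal, and deviations of its normoxic and hypoxic libraries correlated at 0.565 to 0.795 in total and 0.397 to 0.717 in TRAP RNA. Count tests planned in case of counts could not be used. Named genes were the members, Elavl1, list genes that passed, and the 5 genes most like the mean member profile, with Zfp36 chosen after its value was seen. The hypoxia result of 1 further list is not reported here. Fits were tested on simulated data. Alternatives were another pseudocount, no filter, quantile normalization, rescaling, leaving out mice and dropping the block.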

Additional observations from a re-analysis of the deposited data

Results flagged for a closer look

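Values of single mice were compared within the 6 mice for 30 quantities (10 genes by 3 differences), and 5 were far from the others by Dixon's test, where chance flags about 1 in 20. In hypoxia minus normoxia in total RNA, mouse KO-301 stood at 0.21 for Junb (the nearest mouse was at -0.41) and at 0.20 for Jund (nearest -0.38). In TRAP minus total RNA, mouse KO-281 stood at 0.28 for Jun (nearest -0.59) and at 0.02 for Dusp1 (nearest -0.91). Mouse HET-97 stood at 0.35 for Ier2 in the same difference (nearest 0.08). Without KO-301, Junb and Jund passed the hypoxia test in total RNA. Without KO-281, 7 members were called lower in TRAP RNA, as with all mice.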

How the results depend on the processing

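In total RNA the number of members called for hypoxia was 1 to 3 when single mice were left out, 0 without mice HET-129 and KO-301, and 0 with no replicate block, where the paired design was dropped. All genes called numbered 492, against 201 with no filter, 48 to 224 without single mice, 8 without both mice and 0 with no replicate block. In TRAP RNA 4 genes were called, and 0 to 7 under the alternatives. For TRAP minus total RNA 7 members were called, 6 after quantile normalization, 6 after rescaling, 6 with no replicate block (Junb lost, at a limma adjusted p of 0.154) and 5 without HET-129 and KO-301 (Jun and Junb lost). Directions turned for small differences. Fos in hypoxia ranged from -0.23 to 0.0023 over the mice left out, Egr1 was -0.068 without both mice, Jund in TRAP minus total RNA ranged from -0.056 to 0.048 over the mice left out and was 0.097 after quantile normalization, 0.12 after rescaling and 0.082 without both mice, and Ier3 ranged from -0.13 to 0.11. The causes were not tested. The block changed no other call of a member. Genotype comparisons called 0 genes, and at most 2 under any alternative, none of them a member. Quantile normalization moved the median gene of normoxic total RNA from -0.14 to 0.00, which follows from the method. Depth is unknown, and 3 mice a group limit the genotype comparisons.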
